A study of Gallus gallus with 3 samples.

Results

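The immunoglobulin family adhesion molecules examined here are ALCAM, NCAM1, L1CAM, NRCAM, CNTN1, CNTN2, NFASC and MCAM, read on arrays of purified neural crest cells (NCC) of chicken embryos. Members were the probe sets whose platform gene symbol is 1 of these 8 names. This rule found 19 probe sets for 7 genes, of 38439 probe sets and 13009 named genes in all. No probe set of the array carries the symbol L1CAM in the annotation used, so that gene was not analysed here.

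The study compared migrating trunk NCC with later trunk NCC that begin to stop and condense into ganglia, and added cranial NCC. Each of the 3 groups used here is 1 Affymetrix chicken genome array of total RNA: an HH9 array, an HH16-titled array and an HH19-titled array, where HH numbers are Hamburger and Hamilton stages. The cells are taken as White Leghorn, although the methods also name Rhode Island Red chicks and assign neither strain to the arrays. All cells were sorted for the HNK1 surface epitope, and the methods describe cells pooled from many embryos. The methods give the HH9 cells as cranial, from heads cut at the border of midbrain and hindbrain, although the source name says trunk. HH9 thus differs from the trunk arrays in stage, axial level and dissection at once, and these cannot be told apart. The labels of the trunk arrays contradict each other, since title and age field give opposite stages on both. They are called HH16-titled and HH19-titled here after their titles, and neither stage is taken as settled. With 1 array a group there is no replicate error and no test, and every difference below is a difference between arrays. The methods name 3 biological replicates per stage, but the sources used here do not say if an array is 1 of these, a pool or a mean of them.

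These proteins hold cells and axons together through tandem immunoglobulin domains on the cell surface. ALCAM, NCAM1, MCAM and the L1 family (L1CAM, NRCAM, NFASC) span the membrane in their main forms, whereas the contactins CNTN1 and CNTN2 are tethered by a lipid anchor. Most bind copies of themselves or of each other on neighbouring cells. L1 family proteins are tied to the membrane skeleton by ankyrins. In the peripheral nervous system they are best known from axon outgrowth, bundling of axons and the assembly of ganglia. The HNK1 epitope used for the sort is itself a sugar carried by NCAM1 and L1 family proteins. In the gene table of assembly GRCg7b, NRCAM and CNTN1 are direct neighbours among protein-coding genes, and so are NFASC and CNTN2.

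Values are linear MAS5 signals, and each array has a trimmed mean of about 500.1. A signal under 99.8, the 40th percentile of all signals, was raised to this floor before a ratio was taken. A ratio in which 1 of the signals was raised is a lower bound, written "at least", and with both signals under it no ratio is given. A difference of at least 2-fold was counted. A probe set ending in _at was designed for 1 transcript, whereas those ending in _s_at or _a_at may read several transcripts. The probe sets of a gene share the same RNA on each array and are not replicates. Levels of different genes are not compared, since probe sets differ in brightness. In bulk RNA, fewer cells of a type and less RNA per cell cannot be told apart.

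Of 10 neural crest markers with a probe set, 10 reached the floor at HH9, 9 on the HH16-titled array and 10 on the HH19-titled array. SOX10, the lineage factor of migrating crest, had signals of 12315 at HH9, 15746 on the HH16-titled array and 17338 on the HH19-titled array. FOXD3, a crest specifier, had 4273, 6650.2 and 6018 on the same arrays. SNAI2, a factor of crest emigration, ran the other way with 3776, 997 and 1206, and SOX9, an early crest factor, had 404, 97.8 and 278, under the floor on the HH16-titled array. OTX2, a head factor, reached 1243 at HH9 but stayed below the floor in trunk cells, whereas HOXA6, a trunk factor, was below the floor at HH9 with 8002 on the HH16-titled array and 6856 on the HH19-titled array. Of the 19 member probe sets, 7 reached the floor at HH9, 11 on the HH16-titled array and 12 on the HH19-titled array. Of all 38439 probe sets, 22610, 23437 and 23143 did so on the same arrays. The member counts on the trunk arrays are thus near the share over all probe sets. The floor was reached on every array by 7 member probe sets, on some arrays by 5, and on none by 7. Over all probe sets, 32.4% reached the floor on no array.

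**Figure D1:**
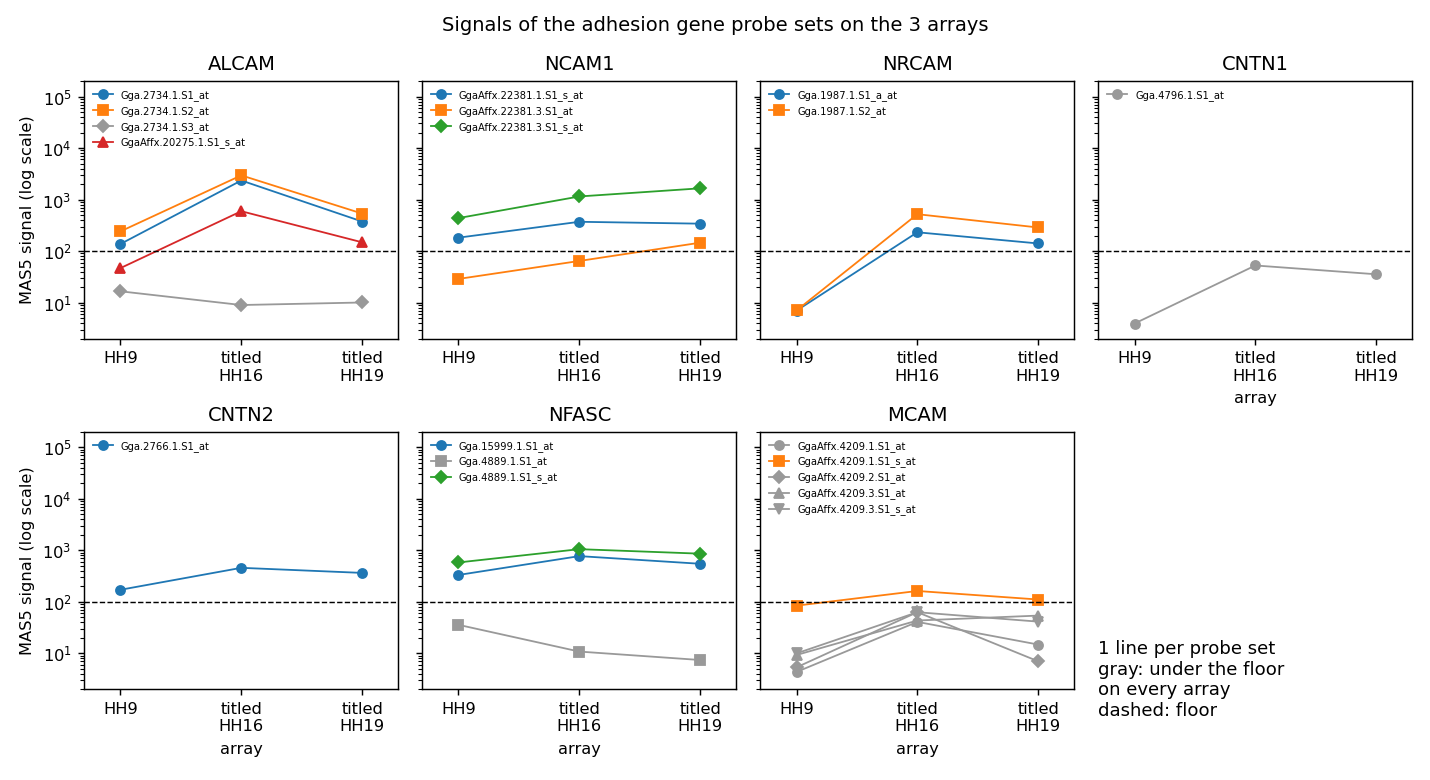
MAS5 signals (log axis) of the 19 member probe sets, 1 panel per gene and 1 line per probe set, on the HH9, HH16-titled and HH19-titled arrays. The dashed line is the floor of 99.8, and gray lines are the 7 probe sets under it on every array. ALCAM stands out on the HH16-titled array, and NRCAM is near 7 at HH9.

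ALCAM, known in the chick as BEN, SC1 or DM-GRASP, is a homophilic adhesion protein of motor and sensory neurons and their axons, and it was the member with the largest measured differences between the HH16-titled array and the other arrays. Its brightest probe set (Gga.2734.1.S2_at) had a signal of 241 at HH9, 2954 on the HH16-titled array and 535 on the HH19-titled array. A neighbouring probe set (Gga.2734.1.S1_at) had 138, 2349 and 375 on the same arrays, and the set that may read several transcripts (GgaAffx.20275.1.S1_s_at) had 46.8, 595 and 148. All 3 put the HH16-titled array far above the others and the HH9 array lowest. On the brightest probe set the HH16-titled array was 5.52-fold higher than the HH19-titled array, and on the other sets it was 6.26-fold and 4.01-fold higher. Going by the titles, this runs opposite to the study, which lists ALCAM among genes higher at the later trunk stage, whereas it is the same if the age fields hold. The same reversal by title holds for STMN2, SNAP25, ISL1 and ELAVL4 and for FGFR2, as the study lists them. Of these STMN2, a neuronal microtubule regulator, was 3.72-fold higher and FGFR2, a fibroblast growth factor receptor, 4.47-fold lower on the HH16-titled array than on the HH19-titled array. TWIST1 had 15.2, under the floor, on the HH16-titled array and 516 on the HH19-titled array. The text of the study names it among genes higher at HH19, which goes with the titles. Its gene list has TWIST1 as lower at HH19, which is the same reversal by title. The study thus gives both directions for TWIST1. The ALCAM log2 ratios of 2.65, 2.46 and 2.00 placed 18th, 23rd and 45th from the top of 25017 probe sets with a ratio between the trunk arrays. Against the HH16-titled array, the HH9 array was 12.2-fold and 17.1-fold lower on the measured sets and at least 5.96-fold lower on the set under the floor at HH9. Against the HH19-titled array, the HH9 array was 2.22-fold and 2.73-fold lower, and at least 1.48-fold lower on the dim set, less than the brightest set of NCAM1 in that comparison. The remaining ALCAM probe set (Gga.2734.1.S3_at) stayed between 8.99 and 16.6 on all arrays, under the floor, and gives no ratio.

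NCAM1, the neural cell adhesion molecule and the carrier of polysialic acid on migrating cells and growing axons, was lowest at HH9 on all its probe sets. Its brightest probe set (GgaAffx.22381.3.S1_s_at) had signals of 438 at HH9, 1150.1 on the HH16-titled array and 1654 on the HH19-titled array. On this set NCAM1 was 2.63-fold lower at HH9 than on the HH16-titled array and 3.78-fold lower than on the HH19-titled array. A less bright set (GgaAffx.22381.1.S1_s_at) had 182, 371 and 341 on the same arrays, and the HH9 array was 2.03-fold and 1.87-fold lower on it. The third set (GgaAffx.22381.3.S1_at) reached the floor on the HH19-titled array alone, with 146, and had 28.9 at HH9 and 64.4 on the HH16-titled array. Between the trunk arrays NCAM1 was the only member gene whose brightest probe set was lower on the HH16-titled array, by 1.44-fold, which is short of 2-fold. Its probe sets did not share a direction there. The set with 146 was at least 1.46-fold lower on the HH16-titled array, and the less bright set was 1.09-fold higher on it. With the median over its 3 probe sets in place of the brightest, the log2 ratio of HH9 over the HH19-titled array was -0.90 and no longer 2-fold.

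NRCAM, an L1 family protein that binds contactins and takes part in axon guidance, was near the bottom of the scale at HH9. Its brighter probe set (Gga.1987.1.S2_at) had signals of 7.05 at HH9, 521 on the HH16-titled array and 287 on the HH19-titled array. The other (Gga.1987.1.S1_a_at) had 6.99, 232 and 141. Both sets therefore lay far under the floor at HH9 and above it on both trunk arrays. On the brighter set the HH9 array was at least 5.22-fold lower than the HH16-titled array and at least 2.88-fold lower than the HH19-titled array, and on the other set at least 2.32-fold and at least 1.41-fold lower. Because the HH9 signals were so dim, these folds depend on the floor. With no floor the log2 ratios of HH9 over the trunk arrays were -6.21 and -5.35, and a floor at the 60th percentile gave -1.15 and -0.29. Between the trunk arrays, measured on both sides, NRCAM was 1.81-fold and 1.65-fold higher on the HH16-titled array, under the 2-fold threshold on either set.

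NFASC, which encodes neurofascin, the L1 family protein of axon initial segments and nodes of Ranvier, was measured on all 3 arrays and differed less than NRCAM in every comparison. Its brightest probe set (Gga.4889.1.S1_s_at) had signals of 579 at HH9, 1049 on the HH16-titled array and 858 on the HH19-titled array. A second set (Gga.15999.1.S1_at) had 331, 769 and 546. The HH9 array was lowest and the HH16-titled array highest on both. Against the HH16-titled array, the HH9 array was 1.81-fold and 2.32-fold lower, so only the second set passed 2-fold, and it was 1.48-fold and 1.65-fold lower than the HH19-titled array. In trunk cells NFASC was 1.22-fold and 1.41-fold higher on the HH16-titled array. A set with the same cluster number as the brightest one (Gga.4889.1.S1_at) had at most 35.7 on any array and gives no ratio.

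The contactins could be followed for CNTN2 but not for CNTN1. CNTN2, also called axonin-1, is a contactin of commissural and sensory axons that binds L1 family proteins. Its only probe set (Gga.2766.1.S1_at) had signals of 171 at HH9, 456 on the HH16-titled array and 363 on the HH19-titled array. CNTN2 was thus 2.67-fold lower at HH9 than on the HH16-titled array and 2.13-fold lower than on the HH19-titled array. The difference to the HH19-titled array lies near the threshold: its log2 ratio of -1.09 became -0.98 with centring of each array to its own median, -0.98 after quantile normalization and -0.63 under the higher floor of the 60th percentile. With that floor the log2 ratio to the HH16-titled array was -0.95. In trunk cells CNTN2 was 1.25-fold higher on the HH16-titled array. CNTN1, a contactin of axons and, in mammals, of the junctions between axon and myelin, had a signal of 3.93 at HH9, 52.6 on the HH16-titled array and 35.5 on the HH19-titled array. All 3 lie under the floor, so no fold is given.

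MCAM, named gicerin in the chick and known from endothelium, smooth muscle and growing nerves, was at or under the floor on most probe sets. Of its 5 sets, 4 stayed under the floor on all 3 arrays, with signals of 62.8 or less. The set that reached it (GgaAffx.4209.1.S1_s_at) had 84.0 at HH9, 162 on the HH16-titled array and 111 on the HH19-titled array. This made MCAM at least 1.62-fold and at least 1.11-fold lower at HH9 than on the trunk arrays, and the HH16-titled array was 1.46-fold higher than the HH19-titled array. No MCAM difference reached 2-fold.

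Counted together, the member probe sets lay lower at HH9 and, apart from ALCAM, did not pass 2-fold between the trunk arrays. In the comparison of HH9 with the HH16-titled array, 11 of 19 had a ratio, 9 were at least 2-fold lower at HH9 and 0 were higher. Of all 25157 probe sets with a ratio, 6.77% were at least 2-fold lower and 2.87% at least 2-fold higher. For 4 of the 11 the HH9 signal was under the floor, and such a set can only be lower. In the comparison of HH9 with the HH19-titled array, 12 had a ratio, 5 were at least 2-fold lower at HH9 and 0 were higher, beside 4.77% lower and 2.31% higher over all 24886 probe sets. Here 5 of the 12 were under the floor at HH9. These 2 comparisons share the HH9 array. Between the trunk arrays 12 had a ratio, and the 3 ALCAM sets passed 2-fold, all higher on the HH16-titled array, with 0 lower. Over all 25017 probe sets 2.22% were higher on that array and 1.30% lower, so the other 9 sets were not past a threshold that few probe sets pass. Of the 12 member probe sets that reached the floor on any array, 12 had their lowest signal at HH9 and 10 their highest on the HH16-titled array, against 39.9% and 36.2% of all such probe sets. Of these 12, 5 were under the floor at HH9 and entered the count only through a trunk array, which favours a lowest signal at HH9. The 12 sets also belong to only 6 genes and are not independent. The median log2 ratio of the members was -1.39 for HH9 over the HH16-titled array, -0.81 for HH9 over the HH19-titled array and 0.52 for the HH16-titled array over the HH19-titled array. The medians over all probe sets in these comparisons were -0.03, -0.02 and 0.01. Read by the brightest probe set, 6 member genes had a ratio, of which 4 (ALCAM, NCAM1, NRCAM and CNTN2) were at least 2-fold lower at HH9 than on either trunk array, and 1, ALCAM, passed 2-fold between the trunk arrays. Over all genes 6.80% and 5.34% were lower at HH9, and 1.93% were higher on the HH16-titled than on the HH19-titled array. The split of all probe sets depends on the scaling. With a centring of each array to its own median, 1074 were at least 2-fold higher at HH9 than on the HH16-titled array and 1340 lower, against 721 and 1704 without centring. The same step gave 792 higher and 994 lower for HH9 over the HH19-titled array, against 576 and 1188. It moved the median of all ratios to 0.11 for HH9 over the HH16-titled array and to 0.09 for HH9 over the HH19-titled array. Of the 9 member probe sets lower at HH9 than on the HH16-titled array, 8 remained past 2-fold, and the less bright NCAM1 set fell short at a log2 ratio of -0.86. Of the 5 lower than on the HH19-titled array, 4 remained, without CNTN2.

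**Figure D2:**
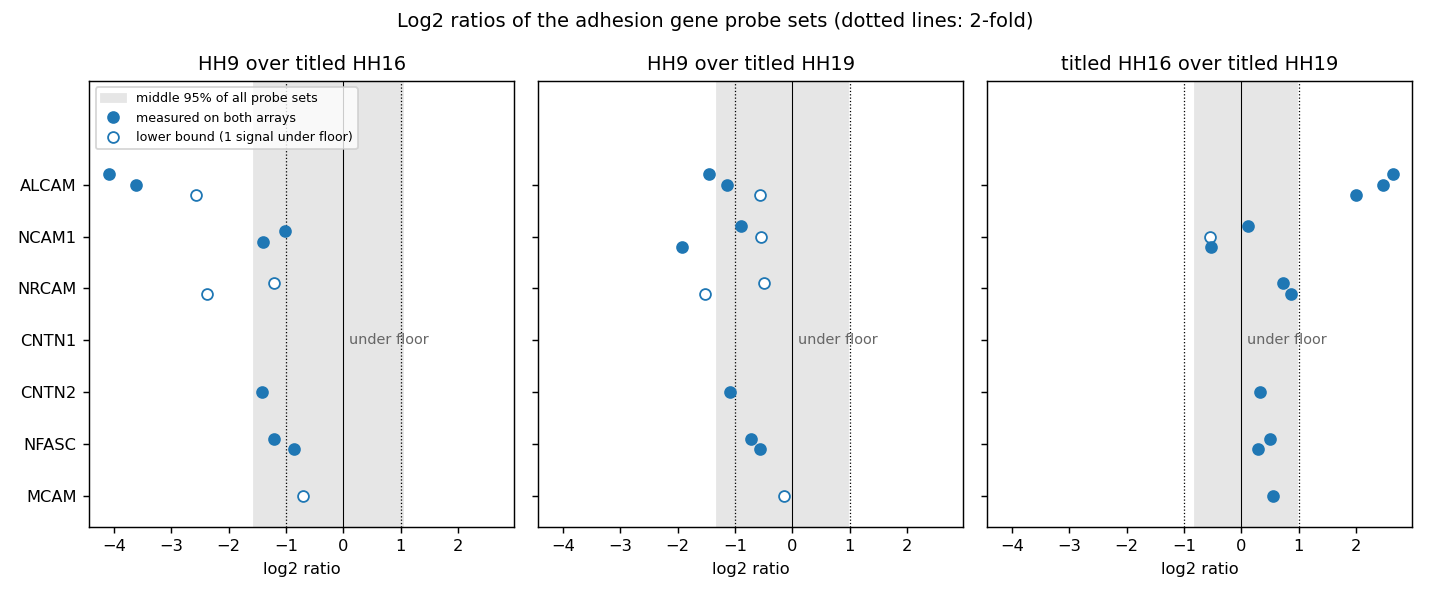
Log2 ratios of the member probe sets in the 3 comparisons, 1 row per gene, with filled points measured on both arrays and open points with 1 signal under the floor (lower bounds). Gray bands hold the middle 95% of all probe sets and dotted lines mark 2-fold. All member points lie left of 0 in both HH9 panels, and between the trunk arrays the 3 ALCAM sets stand alone beyond 2-fold.

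Many other adhesion genes of the same families were dim, which limits what their ratios show. Of 12 further genes of the L1, NCAM, contactin, DSCAM, sidekick and IGSF9 families, 9 had a ratio between HH9 and the HH16-titled array, of which 5 were measured on both arrays and lay within 2-fold. The other 4 are lower bounds under 2-fold, which leave the size of the difference unknown, and 3 genes were under the floor on every array. The number past 2-fold was 0 here, 3 with the floor set at the 20th percentile and 4 with none, all of them lower at HH9, as the members were. Over all genes, each read by its brightest probe set, 6.80% were at least 2-fold lower at HH9 and 3.20% at least 2-fold higher. The median log2 ratio of these genes was -0.10, against 0.01 over all genes. Against the HH19-titled array, 7 had a ratio, of which 2 are lower bounds, and 0 passed 2-fold. This became 2 and 3 under the same changes of the floor, again all lower at HH9. The median was 0.25, and -0.07 and -0.16 under these changes. Over all genes 5.34% were lower and 2.58% higher at HH9. Between the trunk arrays 8 had a ratio and 1 passed 2-fold, being higher on the HH16-titled array, beside 1.93% higher and 1.54% lower over all genes. This was DSCAML1, a homophilic adhesion gene of neurons, with 149 at HH9, 216 on the HH16-titled array and 105 on the HH19-titled array. Its 2.07-fold difference fell short of 2-fold after centring or quantile normalization. CHL1, the remaining L1 family gene, had 32.1, 148 and 115 on the same arrays, an order like that of NRCAM, and was at least 1.48-fold lower at HH9 than on the HH16-titled array.

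Among nectin-like and IgLON genes, which mediate contact between neurons and between neurons and glia, 1 of 8 genes was at least 2-fold lower at HH9 than on the HH16-titled array and 1 of 7 than on the HH19-titled array. Over all genes 6.80% and 5.34% were lower in these comparisons, so 1 gene says little about the list. CADM1, a nectin-like adhesion gene of synapses, had 6916 at HH9, 13729 on the HH16-titled array and 14044.5 on the HH19-titled array. The HH9 array was 1.99-fold and 2.03-fold lower, so this gene sits at the threshold. OPCML, a lipid-anchored IgLON gene, had 85.8, 215 and 64.8 on the same arrays, and the HH16-titled array was at least 2.16-fold higher than the other arrays. Of the junctional and vascular genes EMB and JAM3 ran the opposite way to ALCAM. EMB, which encodes embigin, had 847 at HH9, 316 on the HH16-titled array and 1007 on the HH19-titled array, so the HH16-titled array was 3.19-fold lower than the HH19-titled array. JAM3, a junctional adhesion molecule, had 259, 33.2 and 259.8, and lay at least 2.60-fold lower on the HH16-titled array than on the HH19-titled array. The median log2 ratio of this list was near 0 in all comparisons, at -0.06, -0.05 and -0.10.

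**Figure D3:**
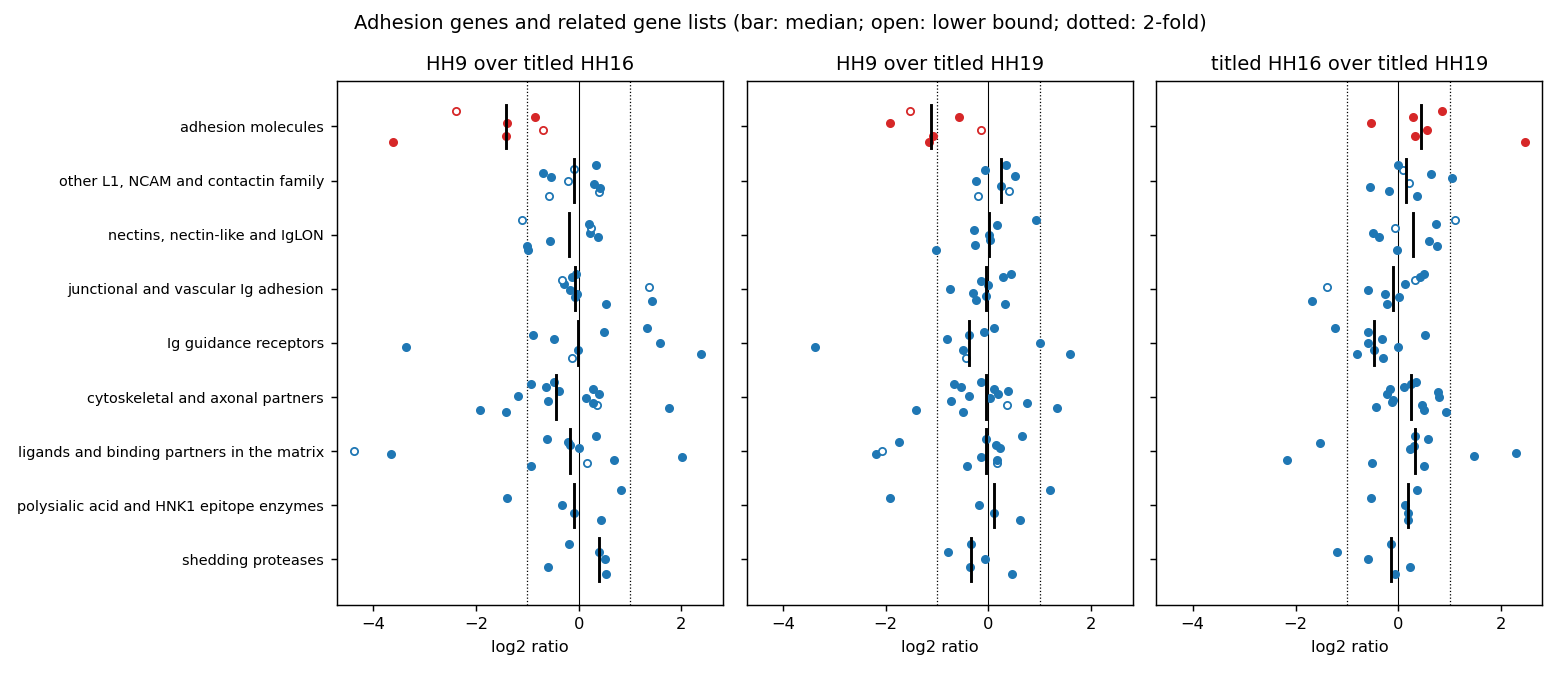
Log2 ratios by gene list in the 3 comparisons, 1 point per gene (its brightest probe set), with the median as a bar, lower bounds as open points and 2-fold as dotted lines. The adhesion molecules (red) have medians of -1.40, -1.12 and 0.44. In the HH9 panels the medians of the other lists stay between -0.44 and 0.40, and the list of epitope enzymes includes NCAM1.

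Of 15 listed cytoskeletal and axonal partners of the members, 14 had a probe set. The ankyrins, which tie L1 family proteins to the spectrin skeleton, were lower at HH9. ANK3 had 436 at HH9, 1649 on the HH16-titled array and 1167 on the HH19-titled array, so the HH9 array was 3.78-fold and 2.67-fold lower. ANK2 had 530.4, 1421 and 748, a 2.68-fold and a 1.41-fold difference in the same direction. KIF5C, a motor of axonal transport, was 2.27-fold lower at HH9 than on the HH16-titled array. CNTNAP1, which encodes the partner of CNTN1 at axon junctions, ran the other way, with 1290 at HH9, 381 on the HH16-titled array and 513 on the HH19-titled array, so the HH9 array was 3.38-fold and 2.52-fold higher. Between the trunk arrays 0 of 13 partners with a ratio were 2-fold different, and their median log2 ratio was 0.25. Over all genes 1.93% were higher and 1.54% lower on the HH16-titled array, so a count of 0 is close to that share. The list's medians for HH9 over the HH16-titled and HH19-titled arrays were -0.44 and -0.05.

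Among extracellular and receptor partners LAMA4 and GFRA1 lay furthest below both trunk arrays at HH9. LAMA4, a laminin chain that is a ligand of MCAM in mammals, had 77.6 at HH9, 2057 on the HH16-titled array and 420 on the HH19-titled array. The HH9 array was at least 20.6-fold and at least 4.20-fold lower, and the HH16-titled array was 4.90-fold higher than the HH19-titled array. This is the order of ALCAM on the same arrays. GFRA1, the GDNF receptor that can signal with NCAM1 in mammals, had 177, 2239 and 810, so the HH9 array was 12.6-fold and 4.57-fold lower, and the HH16-titled array was 2.76-fold higher than the HH19-titled array. GDNF itself lay under the floor on every array. PTPRZ1, a receptor phosphatase that binds CNTN1 and NRCAM, had 649 at HH9, 753 on the HH16-titled array and 2167 on the HH19-titled array. It was 2.88-fold lower on the HH16-titled array than on the HH19-titled array, opposite in direction to ALCAM. FGFR2, with 798, 198 and 886 on the 3 arrays, was 4.03-fold higher at HH9 than on the HH16-titled array and 4.47-fold lower on the HH16-titled array than on the HH19-titled array, whereas FGFR1, a receptor that NCAM1 and L1 can engage, differed by 1.42-fold in that direction. Of the 13 listed genes, 10 had a ratio between the trunk arrays. Of these, 2 were at least 2-fold higher and 2 at least 2-fold lower on the HH16-titled array, and the median log2 ratio was 0.32. Over all genes 1.93% were higher and 1.54% lower on the HH16-titled array.

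The enzymes that modify the members differed little, or in another direction than NCAM1. ST8SIA2, which builds polysialic acid on NCAM1, had 438 at HH9, 247 on the HH16-titled array and 192 on the HH19-titled array. The HH9 array was 1.77-fold and 2.28-fold higher, while NCAM1 itself was lower there. The enzymes of the HNK1 epitope, B3GAT1, B3GAT2 and CHST10, differed by at most 1.54-fold in any comparison. B3GAT1 had 415, 308 and 269.6, and CHST10 had 492, 618 and 562, at HH9 and on the HH16-titled and HH19-titled arrays. The sort itself selected cells that carry this epitope. Of 5 proteases that shed such proteins, MMP2 alone was 2-fold different in any comparison, 2.27-fold lower on the HH16-titled array than on the HH19-titled array, and ADAM10 and ADAM17 differed by less than 2-fold in all 3.

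The guidance receptors, listed with the semaphorin receptors that work with L1 family proteins, went both ways in the comparisons with HH9. NRP1, a receptor of class 3 semaphorins that pairs with L1CAM in mammals, had 363 at HH9, 3720 on the HH16-titled array and 3756 on the HH19-titled array. Both trunk signals were high, so the HH9 array was 10.2-fold and 10.3-fold lower. NRP2, which pairs with NRCAM in mammals, had 3601, 1197 and 1795, and the HH9 array was 3.01-fold and 2.01-fold higher. CDON, a receptor of the immunoglobulin superfamily in hedgehog signaling, had 2676 at HH9, 512 on the HH16-titled array and 893 on the HH19-titled array, so it was 5.22-fold higher at HH9 than on the HH16-titled array. UNC5C, a netrin receptor, was 2.36-fold lower on the HH16-titled array than on the HH19-titled array. It alone of 9 passed 2-fold between these arrays, beside 1.54% lower and 1.93% higher over all genes. Only 1 of the 9 log2 ratios lay above 0, with a median of -0.47, against -0.02 over all genes.

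Genes with profiles most like those of the members were sought among 9321 other genes at or above the floor on all 3 arrays, by the largest difference in log2 ratio over the 3 comparisons. A likeness over 3 arrays is coarse. Nearest to ALCAM was PENK, which encodes the enkephalin precursor, with 141 at HH9, 1724 on the HH16-titled array and 338 on the HH19-titled array and a largest difference of 0.12. DPP10, a potassium channel subunit, and ELAVL2, a neuronal RNA-binding protein, followed at 0.61. Nearest to NCAM1 were HHIP, a hedgehog-binding protein, at 0.08, SLC1A3, a glutamate transporter of glia and their precursors, at 0.09, and KLHL26 at 0.09. Nearest to CNTN2 were THNSL2, BDH2 and RUNDC3B, with differences of 0.02, 0.03 and 0.04.

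Markers of neurons moved with ALCAM. Of 9 neuron markers measured, 7 were at least 2-fold higher on the HH16-titled array than on the HH19-titled array and 0 lower, with a median log2 ratio of 1.90. Over all genes 1.93% were higher and 1.54% lower between these arrays. Their summed signal was 6309 at HH9, 31965 on the HH16-titled array and 11156 on the HH19-titled array. TUBB3 alone gave 5174, 9983 and 4477 of these sums, so it made up most of the sum at HH9. On the same arrays 6, 9 and 7 of the markers reached the floor. NEUROD1, NEUROD4 and SNAP25 were under it at HH9, and NEUROD4 and SNAP25 also on the HH19-titled array. In the counts here, a marker under the floor on 1 of the compared arrays can only come out lower on that array. ISL1, a factor of motor and sensory neurons, had 285 at HH9, 5215 on the HH16-titled array and 530.4 on the HH19-titled array, the order of ALCAM. NEUROD1, a factor of neuronal differentiation, had 5.16, 2508 and 149.6. At HH9, 8 of 9 neuron markers with a ratio were at least 2-fold lower than on the HH16-titled array, and 4 of 7 than on the HH19-titled array. The shares over all genes were 6.80% and 5.34%. Markers of neural tube progenitors mostly moved the other way between the trunk arrays. Of 7, 3 were at least 2-fold lower on the HH16-titled array and 1, SOX2, was slightly higher, with a median log2 ratio of -0.99. At HH9, 2 of 6 with a ratio were at least 2-fold lower than on the HH16-titled array, beside 6.80% of all genes. Against the HH19-titled array 5 of 7 were lower, beside 5.34%. In both comparisons 0 ratios lay above 0, and the medians were -0.72 and -2.09. So at HH9 the progenitor markers went in the direction of the members. Their summed signal was 1262 at HH9, 4577 on the HH16-titled array and 8284 on the HH19-titled array. PAX6 among them had 196, 362 and 1965. The brightest NCAM1 probe set was also lower on the HH16-titled array, but short of 2-fold, and the NCAM1 sets did not share a direction. Of 10 neural crest markers 0 were higher and 1 lower on the HH16-titled array than on the HH19-titled array, with a median of -0.06. Between HH9 and the HH16-titled array 3 of the 10 were at least 2-fold higher at HH9 and 0 lower, beside 3.20% higher and 6.80% lower over all genes. These were SOX9 at least 4.05-fold, SNAI2 3.79-fold and ETS1 2.20-fold, opposite in direction to the adhesion genes. The list as a whole was split, with 5 of the 10 log2 ratios above 0 and a median of -0.18. Against the HH19-titled array SNAI2 alone passed, 3.13-fold higher at HH9, beside 2.58% of all genes. Endothelial markers, which bear on MCAM, summed to 835 at HH9, 1068 on the HH16-titled array and 1731 on the HH19-titled array, and 5, 5 and 7 of 7 reached the floor. Single genes of other lists shared the order of ALCAM. MBP, a glia marker, had 208, 1151 and 485 on the 3 arrays, whereas the glia marker FABP7 differed by at most 1.09-fold. SPI1, a blood marker, had 19.5, 488 and 240, whereas the blood marker HBZ was 1.17-fold lower on the HH16-titled than on the HH19-titled array. The part of neurons or any other cell type in the differences of the adhesion genes was not tested.

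**Figure D4:**
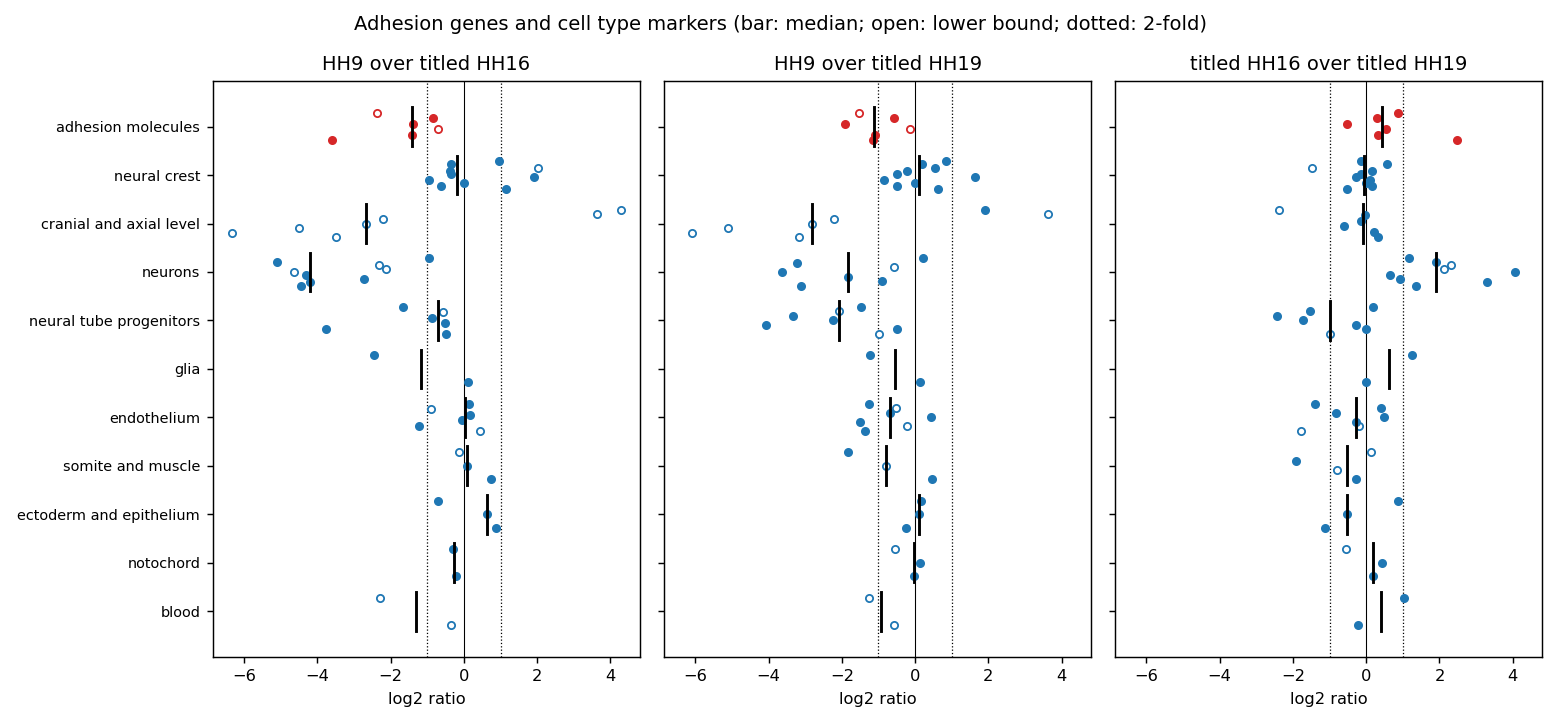
Log2 ratios of the adhesion molecules (red) and of 10 lists of cell type markers (blue) in the 3 comparisons, 1 point per gene, with medians as bars, lower bounds as open points and 2-fold as dotted lines. Neuron markers have medians of -4.19, -1.83 and 1.90. Neural crest markers have medians of -0.18, 0.10 and -0.06 with genes on both sides of 0.

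Across the settings tried, the direction of each member gene's ratio held, while some folds moved with the floor, and MCAM had no ratio in 1 of them. For ALCAM the log2 ratio of the HH16-titled array over the HH19-titled array lay between 2.41 and 2.52, and that of HH9 over the HH16-titled array between -3.61 and -3.45. NRCAM had the widest range, from -6.21 to -1.15 for HH9 over the HH16-titled array. The ratios of NFASC over the same arrays ran from -1.04 to -0.70, and only the median over its probe sets passed 2-fold.

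**Figure D5:**
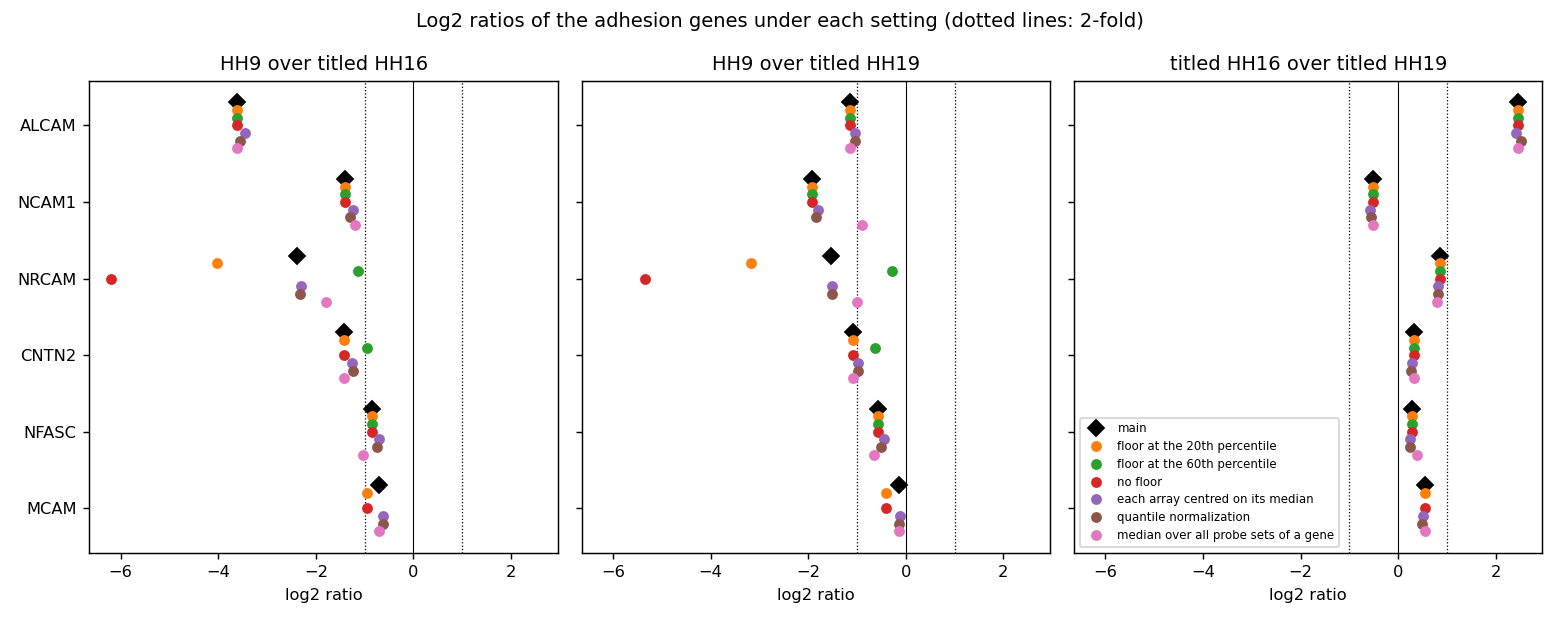
Log2 ratio of each member gene under the reported setting (black diamonds) and 6 alternatives (coloured points) in the 3 comparisons, with 2-fold as dotted lines. NRCAM moves most with the floor in the HH9 panels, and ALCAM stays between 2.41 and 2.52 between the trunk arrays.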

How the data were processed

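RNA of HNK1-sorted cranial and trunk NCC was hybridised to Affymetrix chicken genome arrays, 1 array per group. The authors had a company run MAS5 and deposited linear intensity values, with no version or settings named in the sources used here. Precision is limited by the number of arrays. After 96 control probe sets were dropped from 38535, the other 38439 were used, of which 27168 carry 1 gene in the platform annotation, 177 several and 11094 none. Names, synonyms and neighbours came from a RefSeq gene table of GRCg7b, which held the gene identifiers of the 7 genes measured. Signals were floored at the 40th percentile, and log2 ratios were computed as the array named before "over" divided by the other. Within lists, the probe set of highest mean log2 signal stood for its gene. Differences of at least 2-fold were counted, which is the fold limit of the study. The study also set a p-value limit over its replicates, whereas no p-value was computed here. The members, the 8 gene lists and the 10 marker lists were chosen with earlier results of these data known. Named in the text are all members, genes of a list that differ by 2-fold (at most 3 in each direction), genes whose role bears on a member, and the 3 nearest profiles of each member that is measured on all arrays and spans at least 1 log2 unit. The counting was tested on simulated data with changes placed only in probe sets well above the floor, so this does not cover dim probe sets. Alternatives were the 20th and 60th percentiles as floor, no floor, centring, quantile normalization, a 3-fold threshold, only probe sets specific to 1 transcript, and the median over the probe sets of a gene. Python 3.11.15 with numpy 2.4.6, pandas 2.3.3, scipy 1.17.1 and matplotlib 3.10.9 was used.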

Additional observations from a re-analysis of the deposited data

How the results depend on the processing

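Counts of member probe sets at least 2-fold apart moved by over 1.5 times mainly with the floor. For HH9 over the HH16-titled array the 9 lower and 0 higher became 15 lower and 1 higher with no floor, 4 lower at a 3-fold threshold and 5 lower without probe sets that may bind several transcripts, where 5 had a ratio. For HH9 over the HH19-titled array the 5 lower and 0 higher became 8 lower with the floor at the 20th percentile, 2 lower with it at the 60th, 12 lower and 1 higher with no floor, and 1 lower at 3-fold. Between the trunk arrays the 3 higher and 0 lower became 3 higher and 1 lower under a floor at the 20th percentile and 5 higher and 1 lower with no floor. The floor sets which dim probe sets are given a ratio. Centring and quantile normalization left these counts within 1.5 times. Of the single gene ratios and list counts recomputed, 254 stayed within 1.5 times of their value and 43 did not, and 0 ratios past 2-fold changed sign. No paired analysis was possible because each group is 1 array. Signals near the floor limit what can be said of CNTN1 and MCAM.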
